A study of Homo sapiens with 11 samples.

Results

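The genes analysed here write, read or recruit methylation of lysine 9 of histone H3 (H3K9). The 10 genes, chosen by name, were the methyltransferases SUV39H2, SETDB1, SETDB2, EHMT1 and EHMT2, the HP1 genes CBX1, CBX3 and CBX5, and TRIM28 and ATF7IP, which act with SETDB1. Of these, 9 were matched among the 23167 Ensembl identifiers of the RNA-seq count tables, and all 9 passed the filter on low counts. EHMT2 RNA is not analysed here, but the position of the gene allowed a look at the peaks around it. MDA-MB-231 is an established human triple-negative breast cancer cell line. Total RNA came from 2 libraries of cells transfected with siRNA against the splice variant mH2A1.1 at 11 nM (mH2A1.1 KD) and 2 of cells that received the transfection reagent without siRNA (WT), all collected on day 3. ChIP-seq peaks came from WT cells, with 1 library for mH2A1.1 and 1 for total mH2A1, and so have no replicate error. Exposure to any siRNA and depletion of mH2A1.1 cannot be told apart in this design, and the labels do not name the siRNA used. They also do not say that replicates were separate cultures, so the tests measure only the spread between the libraries.

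H3K9 methylation marks heterochromatin. HP1 proteins bind the methylated tail through their chromodomain and hold chromatin in a compact state, and several methyltransferases bind HP1 in turn, which lets the mark spread along the fibre. TRIM28 (KAP1) is brought to DNA by KRAB zinc finger proteins and recruits SETDB1 and HP1, while ATF7IP stabilises SETDB1 in the nucleus. The histone variant macroH2A1 replaces H2A in part of the nucleosomes of heterochromatin and of some active genes, and its gene makes the splice variants mH2A1.1 and mH2A1.2.

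Reads on genes summed to between 2309549 counts in KD replicate 2 and 9794674 in WT replicate 1. In KD replicate 2, chromosomes 22 and X were empty and chromosome 21 held 30 counts. These chromosomes and Y carry none of the 10 genes and were left out of the tests. Across genes, log2 CPM correlated at 0.994 between the WT libraries and at 0.959 between the KD libraries, where genes are not independent replicates. MACROH2A1, the gene of both splice variants, had 385 and 394 CPM (counts per 1000000 counts, with TMM scaling) in WT and 274 and 300 in KD. The KD values lay below both WT values, but the log2 fold change of -0.44 had an adjusted p of 0.205 in the quasi-likelihood test of edgeR (Benjamini-Hochberg adjustment over all tested genes). These counts do not separate mH2A1.1 from mH2A1.2. The mesenchymal markers VIM, CD44, CAV1, FN1 and AXL were all expressed. Of the receptor genes, ESR1 and PGR had 0 counts in every library. ERBB2 RNA was present, with 80.0 and 80.2 CPM in WT and 86.9 and 128 in KD.

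The start of each gene is shown first for the HP1 genes and SUV39H2, because they differed in their peaks. Their promoters all held more CpG dinucleotides than the median promoter. The sequences below are the 250 bases before the RefSeq start, on the strand of the gene (GRCh38.p14). For CBX1 and CBX3 the whole window lies inside the gene, after the start used for the peaks (48101478 and 26201162). Capitals mark matches on either strand to CCAAT (the NF-Y box), GGGCGG (a GC box) and TGACGTCA (the cAMP response element), the motifs found among the 5 that were searched.
CBX1, chr17:48101187-48101436, minus strand: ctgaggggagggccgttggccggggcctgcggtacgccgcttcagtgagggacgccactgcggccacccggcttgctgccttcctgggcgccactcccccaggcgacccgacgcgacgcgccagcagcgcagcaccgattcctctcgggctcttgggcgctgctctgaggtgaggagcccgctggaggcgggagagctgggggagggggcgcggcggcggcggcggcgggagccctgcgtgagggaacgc
CBX3, chr7:26201193-26201442, plus strand: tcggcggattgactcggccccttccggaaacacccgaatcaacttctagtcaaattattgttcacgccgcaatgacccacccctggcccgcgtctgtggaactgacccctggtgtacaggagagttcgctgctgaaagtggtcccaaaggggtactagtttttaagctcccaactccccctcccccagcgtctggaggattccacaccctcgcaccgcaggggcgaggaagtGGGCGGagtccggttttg
CBX5, chr12:54280123-54280372, minus strand: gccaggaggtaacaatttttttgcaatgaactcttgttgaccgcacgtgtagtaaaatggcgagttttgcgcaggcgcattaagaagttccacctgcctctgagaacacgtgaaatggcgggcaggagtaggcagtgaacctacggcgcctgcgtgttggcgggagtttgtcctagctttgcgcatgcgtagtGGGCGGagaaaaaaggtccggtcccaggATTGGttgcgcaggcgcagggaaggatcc
SUV39H2, chr10:14878616-14878865, plus strand: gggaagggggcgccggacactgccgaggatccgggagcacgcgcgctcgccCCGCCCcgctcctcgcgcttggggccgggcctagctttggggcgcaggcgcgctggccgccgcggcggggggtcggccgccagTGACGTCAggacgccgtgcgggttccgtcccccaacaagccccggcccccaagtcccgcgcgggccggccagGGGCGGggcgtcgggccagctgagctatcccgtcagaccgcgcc

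RefSeq promoters were matched for 9 of the 10 genes, all but TRIM28. They held between 14 CpG dinucleotides at ATF7IP and 43 at EHMT1, where the median of 35116 promoters of this length was 11. CBX1 held 30, CBX3 16, CBX5 17 and SUV39H2 38. At least as many were held by 12.4%, 41.0%, 39.0% and 3.28% of all promoters, in the same order. GGGCGG was found in 6 of the 9 promoters and in 42.6% of all promoters. CCAAT was found in 3 (SETDB2, CBX5 and ATF7IP) and in 32.0% of all. TGACGTCA was found at SUV39H2 alone and in 1.65% of all. TATAAA, with 10.7% of all, and CCGGAAGT, with 3.42%, had no match in the 9 windows.

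In WT cells, TRIM28 had the highest and SETDB2 the lowest RNA level of the 9 genes. On the FPKM scale, which divides counts by the summed length of all exons, TRIM28 had 83.2 ± 6.27 (SD, n = 2), followed by CBX1 with 53.3 ± 1.81, CBX3 with 36.0 ± 3.18, CBX5 with 26.8 ± 1.04, ATF7IP with 18.3 ± 0.700 and SUV39H2 with 16.4 ± 1.70. SETDB1 with 6.52 ± 0.0153, EHMT1 with 4.15 ± 0.111 and SETDB2 with 1.66 ± 0.0616 formed the lower end, 50.1-fold below TRIM28. The WT libraries kept every neighbour in this order apart. The choice of length moved the order. Divided by the length of the canonical transcript alone, the WT level of CBX3 was 84.5 ± 7.46 and that of CBX1 was 74.4 ± 2.52, and EHMT1 with 18.1 ± 0.485 stood above SETDB1 with 10.9 ± 0.0255. EHMT1 then overlapped SUV39H2 with 19.1 ± 1.98.

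**Figure D1:**
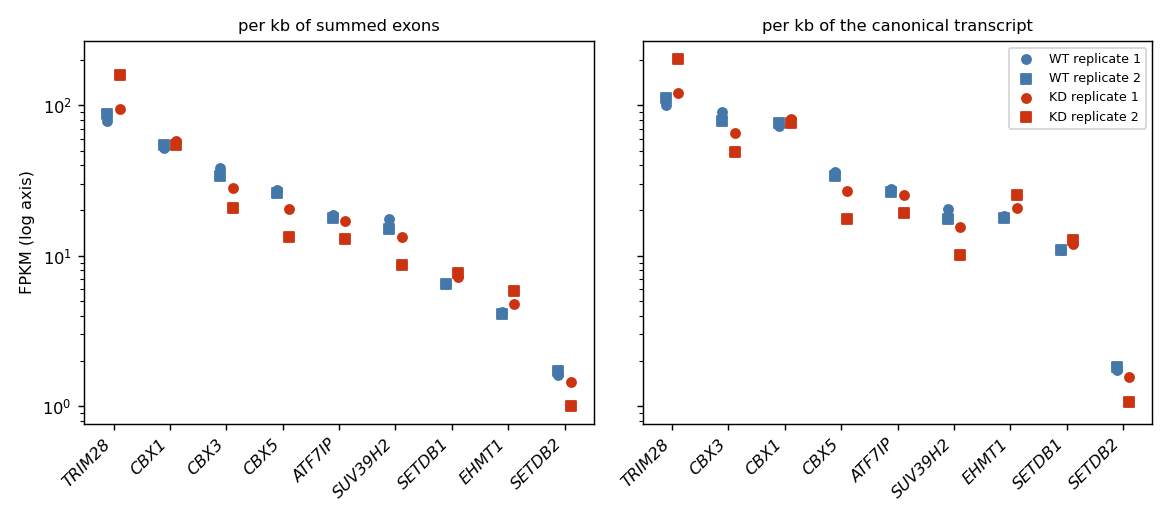
RNA level of the 9 genes in FPKM (log axis) in each library, divided by the summed exon length (left) or the length of the canonical transcript (right), with genes ordered by their WT mean. TRIM28 is highest and SETDB2 lowest in both panels, while CBX1 and CBX3 change places.

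None of the 9 genes was called between WT and KD with edgeR, where a call needed both an adjusted p below 0.1 and more than a 1.5-fold difference. The same test called 0 of all 10963 genes (0%), the smallest adjusted p being 0.176, while an unadjusted p under 0.05 was reached by 2 of the 9 genes (CBX3 and CBX5) and 23.2% of all genes. DESeq2 called 874 of the 7765 genes for which it gave an adjusted p (11.3%), and none of the 8 among them that are analysed here. The log2 fold changes of the 9 genes ran from -0.65 for CBX5 to 0.60 for TRIM28, with 5 below 0 and a median of -0.29, where the median of all tested genes was 0.01. In CPM the WT and KD libraries did not overlap for any of the 9 genes. For CBX1 they nearly touched, at 166.2 in the higher WT and 166.3 in the lower KD library. The KD libraries were both lower than either WT library for 5 genes, which held for 32.4% of all tested genes, and above them for 4, which held for 32.5%.

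**Figure D2:**
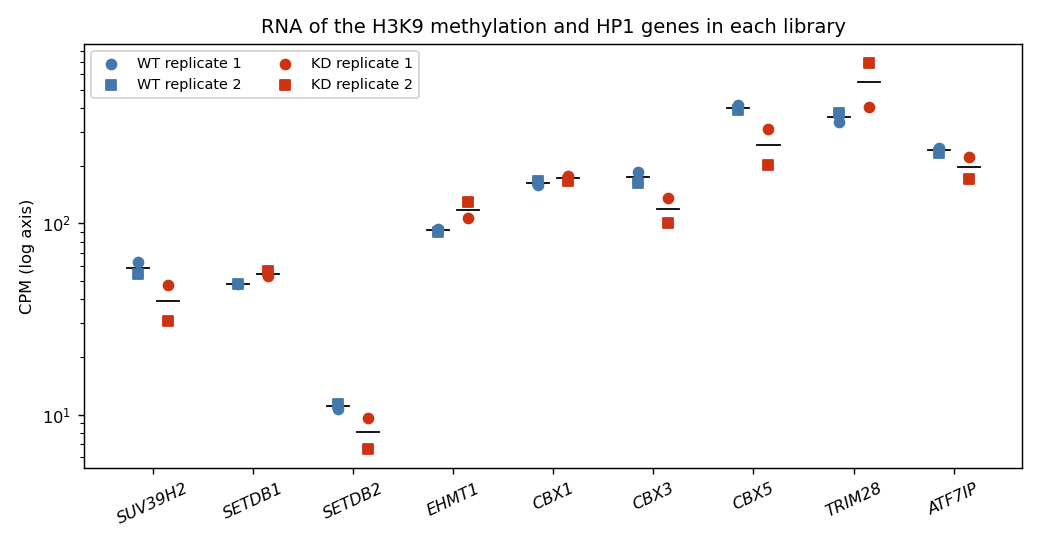
CPM (log axis) of the 9 genes in the 2 WT (blue) and 2 KD (red) libraries, where circles are replicate 1, squares replicate 2 and bars the group means. KD replicate 2 lies farther from the WT mean than KD replicate 1 for every gene but CBX1.

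Among the methyltransferases, SUV39H2, which trimethylates H3K9 in constitutive heterochromatin, had 62.6 and 54.0 CPM in WT and 47.6 and 30.7 in KD. Both KD values were below the WT values, and KD replicate 2 was the lowest. The log2 fold change was -0.54 (SE 0.25), with an adjusted p of 0.231 in edgeR's test. SUV39H2 (chromosome 10, 14878820 to 14904315, plus strand) shares 159 bp of exons with DCLRE1C on the other strand, where reads cannot be assigned to 1 gene without strand. The paper names a stranded library kit, but for counting it states only default parameters, so the strand setting used is uncertain here.

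SETDB1, which trimethylates H3K9 at silenced genes and retroelements, had 48.0 and 48.1 CPM in WT and 52.9 and 56.2 in KD. The KD values were slightly above a narrow WT range. Its log2 fold change of 0.18 (SE 0.18) had a 95% interval from -0.25 to 0.61, which includes no change, and an adjusted p of 0.535 in edgeR's test. SETDB1 (chromosome 1, 150926263 to 150964744, plus strand) shares 948 bp of exons with CERS2 on the other strand. SETDB2, a relative of SETDB1, was the gene with the fewest reads, with 102 and 86 counts in WT and 51 and 14 in KD. In CPM these were 10.7 and 11.3 in WT and 9.64 and 6.62 in KD, without overlap. The 14 counts alone have a 95% Poisson interval from 7.65 to 23.5, which covers counting error only, and the log2 fold change of -0.37 (SE 0.27) had an adjusted p of 0.402 in edgeR's test.

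EHMT1 (GLP), which with EHMT2 (G9a) forms the main H3K9 mono- and dimethyltransferase of euchromatin, had 93.8 and 90.3 CPM in WT and 106 and 129 in KD. Both KD libraries were above WT, and the log2 fold change of 0.35 (SE 0.19) had an adjusted p of 0.278 in edgeR's test. EHMT2 lies in the major histocompatibility region of chromosome 6 (31879759 to 31897698, minus strand). From 1000000 bp before to 1000000 bp after EHMT2, where GENCODE lists 101 protein-coding genes, the count tables hold 2 identifiers and each peak list 1 peak, so that the values around EHMT2 are too sparse to describe it.

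Of the HP1 genes, CBX5 and CBX3 had lower values in both KD libraries and CBX1 did not. CBX5 (HP1α), found mainly in constitutive heterochromatin, had 414 and 392 CPM in WT and 309 and 201 in KD. CBX3 (HP1γ), found in both heterochromatin and transcribed genes, had 185 and 163 in WT and 136 and 101 in KD. CBX1 (HP1β) had 158 and 166 in WT and 177 and 166 in KD. The log2 fold changes were -0.65 (SE 0.24) for CBX5, -0.55 (SE 0.21) for CBX3 and 0.08 (SE 0.17) for CBX1. The adjusted p-values of edgeR's test were 0.196 for CBX5, 0.200 for CBX3 and 0.771 for CBX1. The interval of CBX1 ran from -0.32 to 0.49.

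Ratios of counts within a library do not depend on scaling between libraries. CBX5 had 2.61 and 2.36 counts for each count of CBX1 in WT, and 1.75 and 1.21 in KD. CBX3 had 1.17 and 0.982 in WT and 0.767 and 0.605 in KD. CBX5 against CBX3, at 2.24 and 2.40 in WT and 2.28 and 2.00 in KD, overlapped between the groups. The share of CBX1 in the summed FPKM of the 3 HP1 genes was 44.2% and 47.7% in WT and 54.5% and 61.5% in KD, and 36.6% and 40.2% against 46.7% and 53.5% with canonical lengths. No test was made of these ratios.

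Some exons of the HP1 genes are not unique in the genome. Of the 50-base windows along the exons, 20.8% at CBX1 and 15.2% at CBX3 have an exact copy elsewhere in GRCh38, including the pseudogenes CBX1P1, CBX1P2 and CBX1P4 and CBX3P1 and CBX3P9. The share was 6.18% at CBX5, 3.62% at SUV39H2 and 1.73% at ATF7IP, and at most 0.181% at the other 4 genes. Reads that fit several places equally well fall below a mapping quality limit, and how many were lost at CBX1 and CBX3 is not known. CBX3 also overlaps HNRNPA2B1, which runs the other way, by 368 bp of exons, and HNRNPA2B1 had 12898 and 10275 counts in WT and 6729 and 2606 in KD.

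TRIM28, the corepressor of KRAB zinc finger proteins, had 339 and 377 CPM in WT and 404 and 686 in KD. The KD libraries were above WT and far apart from each other, and the log2 fold change of 0.60 (SE 0.27) had an adjusted p of 0.228 in edgeR's test. ATF7IP (MCAF1), the SETDB1 partner, had 247 and 234 CPM in WT and 223 and 170 in KD. The log2 fold change was -0.29 (SE 0.20) with an adjusted p of 0.380 in edgeR's test. Within a library, TRIM28 had 7.07 and 7.84 counts for each count of SETDB1 in WT and 7.64 and 12.2 in KD, which overlap, while ATF7IP had 5.14 and 4.86 in WT and 4.21 and 3.02 in KD, which do not. ATF7IP and SETDB1 differ by 9.22 points in exon GC content, and with the correction for GC content and length described below the KD ratio was 1.01 times the WT ratio, against 0.723 times without it.

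These values moved with KD replicate 2 and with the base composition of the genes. KD replicate 2 was farther from the WT mean than KD replicate 1 for 8 of the 9 genes and for 80.1% of all tested genes. The median log2 ratio to the WT mean over the 9 genes was -0.11 in KD replicate 1 and -0.50 in KD replicate 2. Without KD replicate 2, edgeR's log2 fold changes were -0.38 for CBX5, -0.36 for CBX3, -0.29 for SUV39H2 and 0.18 for TRIM28. Without KD replicate 1, they were -1.01, -0.80, -0.94 and 0.93, in the same order. Both fits took the spread from the WT pair alone, so only effect sizes are given. Among all tested genes, sorted into 10 classes by the GC content of their exons, the median log2 fold change went from -0.53 at the lowest to 0.51 at the highest GC content. In KD replicate 1 these medians went from -0.29 to 0.19 and in KD replicate 2 from -0.89 to 0.80.

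The exons of the 5 genes with a negative log2 fold change were 39.0% (ATF7IP), 40.9% (SUV39H2), 41.1% (SETDB2), 41.2% (CBX5) and 44.4% (CBX3) GC. Those of the 4 with a positive one were 48.3% (SETDB1), 49.7% (CBX1), 53.8% (EHMT1) and 62.5% (TRIM28), so the groups did not overlap in GC content. After the trends with GC content and exon length were removed from each library, the log2 fold change became 0.08 for TRIM28, -0.01 for EHMT1, -0.06 for CBX1, 0.12 for SETDB1, -0.08 for SETDB2, -0.22 for SUV39H2 and 0.13 for ATF7IP, and the median of the 9 genes was -0.06. The sign turned for EHMT1, CBX1 and ATF7IP. CBX3 with -0.40 and CBX5 with -0.38 had the lowest values in this fit. CBX3 reached an adjusted p of 0.0896 in edgeR's test, as did 12.0% of all genes under 0.1, and CBX5 had 0.109. Neither passed the fold change of 1.5, which together with the p was passed by 5.54% of all genes and by none of the 9. CBX5 and CBX3 against CBX1, corrected in the same way, were 0.797 and 0.787 times their WT ratios, where the uncorrected values were 0.595 and 0.638. MACROH2A1 changed little with the correction, to -0.41. The part of base composition in the other differences was not tested.

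**Figure D3:**
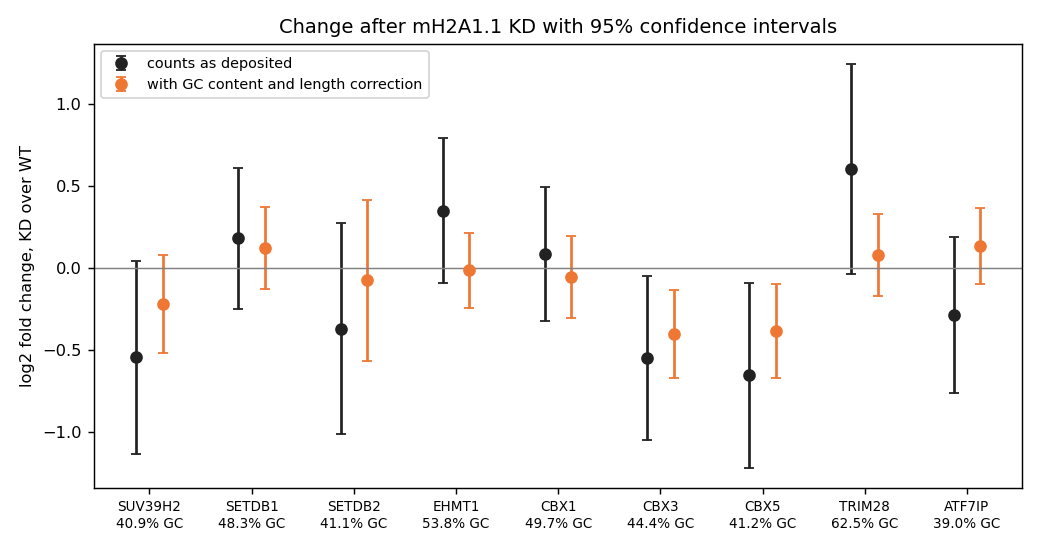
Log2 fold change of the 9 genes (KD over WT) with 95% confidence intervals, from the counts as deposited (black) and with the correction for GC content and length (orange), above each gene's exon GC content. The corrected values of CBX3 and CBX5 are -0.40 and -0.38, and those of the other genes lie nearer to 0.

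**Figure D4:**
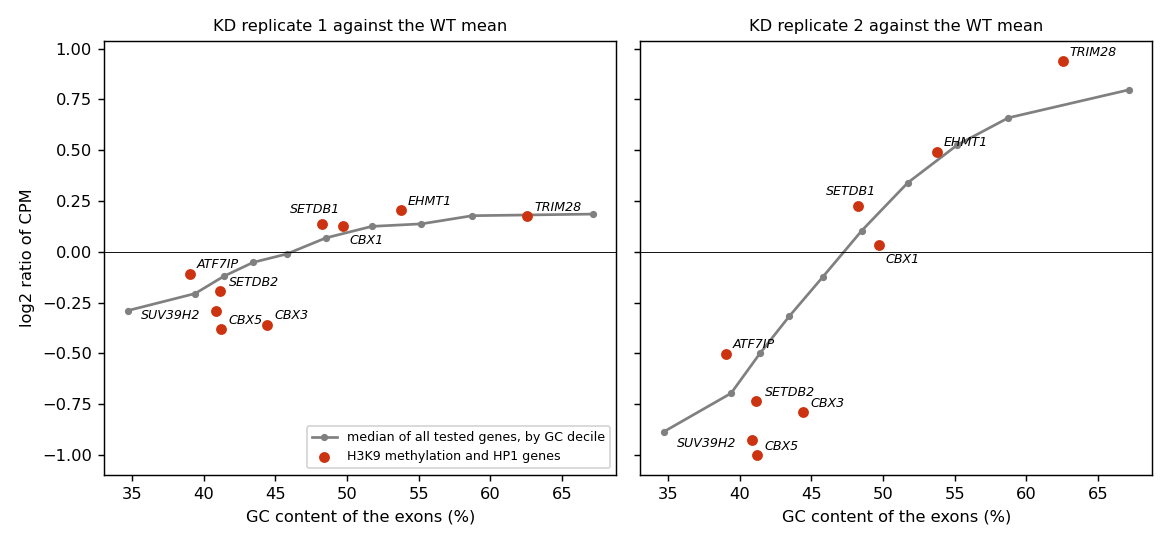
Log2 ratio of CPM to the WT mean against the exon GC content (%) for KD replicate 1 (left) and KD replicate 2 (right), for the 9 genes (red) and the median of all tested genes in 10 GC classes, placed at the middle of each class (grey). The slope is steeper in KD replicate 2, and CBX3, CBX5, SUV39H2 and SETDB2 lie below the grey line in both.

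In WT cells an mH2A1.1 peak lay within 500 bp of the transcription start site (TSS) of 5 of the 10 genes, SETDB1, EHMT1, CBX1, CBX3 and TRIM28, and so of 5 of 9 when EHMT2, in its sparse region, is left out. Among all tested genes with a position, 46.9% had one. A total mH2A1 peak was found at the TSS of CBX3 alone, against 18.4% of all tested genes. An mH2A1.1 peak that shared at least 1 bp with a total mH2A1 peak, called common here, lay at EHMT1, CBX3 and TRIM28, against 26.2% of all tested genes. The shared bases need not lie at the TSS. The nearest total mH2A1 peak was 11992 bp from the TSS of EHMT1 and 2064 bp from that of TRIM28. The peaks were called in bins of 3000 bp and their scores are listed as 0, so heights cannot be compared and a peak cannot be placed more finely than a bin.

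CBX3 (chromosome 7, 26201162 to 26213607, plus strand) had the same single bin, from 26199001 to 26202000, in both lists. The bin also holds the start of HNRNPA2B1, 367 bp away, and cannot be assigned to 1 of the genes. CBX1 (chromosome 17, 48070052 to 48101478, minus strand) had an mH2A1.1 bin over its TSS, from 48099001 to 48102000, and a total mH2A1 bin just before it, from 48102001 to 48105000, which begins 523 bp from the TSS and so falls outside the window. CBX5 (chromosome 12, 54230942 to 54280133, minus strand) had none at its TSS, which lies 60 bp from that of HNRNPA1. The nearest peaks, 1 in each list, lay 10868 bp upstream, and 2 mH2A1.1 peaks in its body covered 18.3% of it. Within 500 bp of their starts, the 3 HP1 genes thus had a peak of both lists, of the mH2A1.1 list only and of neither. Total mH2A1 includes mH2A1.1, so a peak in the mH2A1.1 list only does not mean that total mH2A1 was absent. The paper describes its total mH2A1 antibody as less affine for mH2A1.1 than its mH2A1.1 antibody, and kept only the common peaks. The windows of CBX3 and CBX5 printed above hold a like number of CpG dinucleotides, but that of CBX3 lies after the TSS.

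TRIM28 (chromosome 19, 58544064 to 58550722, plus strand) lay whole within an mH2A1.1 peak of 123000 bp, from 58437001 to 58560000. Total mH2A1 peaks lay on both sides of it, ending 2064 bp before its TSS and starting again 12937 bp after it, and not on the gene. SETDB1 had an mH2A1.1 bin at its TSS from 150924001 to 150927000 and a second peak of 72000 bp, from 150936001 to 151008000, and the peaks covered 76.6% of the gene. EHMT1 (chromosome 9, 137618992 to 137870016, plus strand) had 9 mH2A1.1 peaks over 22.7% of its body. The first, from 137574001 to 137628000, covered the TSS and also that of ARRDC1-AS1, 86 bp away. On the gene, 3 total mH2A1 peaks covered 7.17% and overlapped no mH2A1.1 peak.

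SUV39H2, SETDB2 (chromosome 13, 49444274 to 49495003, plus strand) and ATF7IP (chromosome 12, 14365676 to 14502931, plus strand) had no base in a peak of either list. The same held for EHMT2, where the sparse region gives this no weight. For 27.9% of all tested genes no base was in an mH2A1.1 peak. The nearest mH2A1.1 peak was 10676 bp from the TSS of ATF7IP, 67181 bp from that of SUV39H2 and 70274 bp from that of SETDB2. The median share of the gene in mH2A1.1 peaks was 11.8% over the 10 genes, 17.3% over the 9 without EHMT2 and 8.22% over all tested genes.

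**Figure D5:**
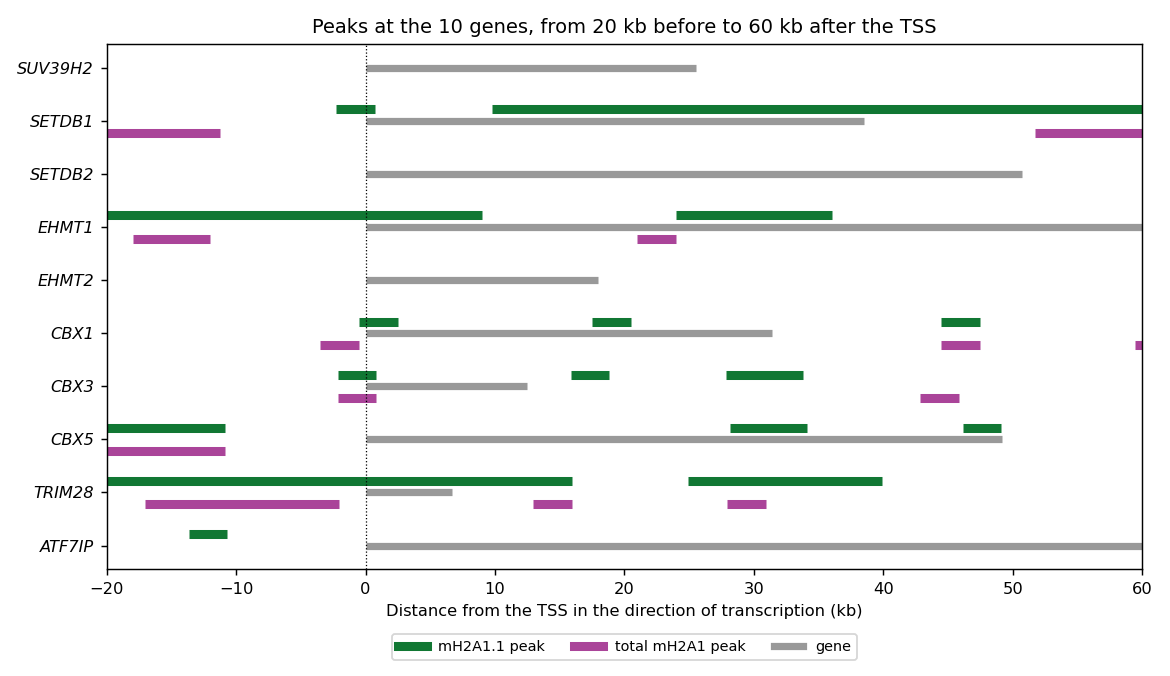
Peaks of mH2A1.1 (green) and total mH2A1 (purple) around the 10 genes (grey), from 20 kb before to 60 kb after the TSS along the direction of transcription. TRIM28 lies whole inside an mH2A1.1 peak, CBX3 has the same bin in both lists at its TSS, and SUV39H2, SETDB2 and EHMT2 have no peak in view.

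Set beside the RNA, the 4 measured genes without an mH2A1.1 peak at the TSS (SUV39H2, SETDB2, CBX5 and ATF7IP) all had a negative log2 fold change, with a median of -0.46. Of the 5 with a peak, CBX3 had a negative one, and the median was 0.18. Over all tested genes, the medians were -0.12 without and 0.15 with a peak, and 58.9% and 38.7% were negative. GC content moved with the peaks. Exons of the 4 genes without a peak had at most 41.2% GC and those of the 5 with a peak at least 44.4%, and the medians over all genes were 43.9% and 52.0%. With the correction for GC content and length, the medians were -0.15 and -0.01 for these genes and 0.00 in both classes of all genes. Among the 9 genes, presence of a peak and GC content cannot be told apart.

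Of 31 other genes of H3K9 methylation and heterochromatin, 24 were tested, and edgeR called 0 of them. SUV39H1, ATRX, PHF8, MORC2 and CHAF1B were not among the 24, since they lie on chromosomes left out of the test. An unadjusted p under 0.05 was reached by 4 of the 24, ZNF644, TASOR, KDM4B and LBR, against 23.2% of all genes. DESeq2 called 1 of 21, LBR, against 11.3% of all genes. Among other methyltransferases and partners of SETDB1 and EHMT2, the log2 fold changes of the 4 tested ran from -0.66 for ZNF644, a partner of EHMT2, to 0.31 for WIZ, another. Of the HUSH complex, which brings SETDB1 to retroelements, 3 were tested, from -0.59 for TASOR to -0.17 for MPHOSPH8, all negative. The 10 H3K9 demethylases ran from -0.35 for JMJD1C to 0.58 for KDM4B, with 6 negative. Of the HP1 partners and genes of heterochromatin maintenance, 7 were tested, from -1.34 for LBR to 0.29 for UHRF1, with 3 negative. With the correction for GC content and length the values named here, the extremes of the uncorrected fit, shrank or changed sign. Over whole lists, the range narrowed for the methyltransferases and partners (-0.16 to 0.19), HUSH (-0.13 to 0.15) and the HP1 partners and maintenance genes (-1.11 to 0.05). It widened for the demethylases (-0.50 to 0.68). WIZ then had -0.16, ZNF644 -0.16, TASOR -0.13, MPHOSPH8 0.00, JMJD1C 0.06, KDM4B 0.10 and UHRF1 -0.10. In that fit 3 of the 4 methyltransferases and partners, 2 of the 3 HUSH genes, 4 of the 10 demethylases and 6 of the 7 HP1 partners and maintenance genes were negative.

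LBR, the lamin B receptor that ties HP1-bound chromatin to the nuclear envelope, had 239 and 226 CPM in WT and 114 and 66.6 in KD. Both KD libraries lay far below WT. Its adjusted p was 0.176 in edgeR's test of the counts as deposited, and with the correction for GC content and length its log2 fold change was -1.11 with an adjusted p of 0.0149 in the same test, which called it lower. That fit called 2 of the 24 genes, LBR lower and the demethylase KDM7A higher, against 5.54% of all genes. KDM7A had 14.0 and 11.6 CPM in WT and 17.6 and 11.8 in KD, which overlap. Without the correction its log2 fold change was 0.25, with an adjusted p of 0.562 in edgeR's test.

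Other marker groups also differed between the libraries. The summed CPM of the proliferation genes MKI67, TOP2A, CCNB1, CDK1, CCNA2, PCNA and MCM2 was 4488 and 4483 in WT and 3304 and 2645 in KD, and 6 of the 7 had a negative log2 fold change. Most of this sum came from MKI67 and TOP2A. PCNA overlapped between the groups, as did MCM2, with 120 and 126 CPM in WT and 111 and 201 in KD. The summed CPM of the epithelial genes KRT8, KRT18, KRT19, EPCAM and CDH1 was 1122 and 1247 in WT and 1887 and 2852 in KD, and nearly all of it came from the 3 keratins. EPCAM had 19.9 and 22.1 CPM in WT and 24.2 and 21.3 in KD, which overlap, and CDH1 had 22 and 19 counts in WT and 2 and 5 in KD. The 11 interferon-induced genes summed to 784 and 791 in WT and 681 and 559 in KD. They include MX1 on chromosome 21, where KD replicate 2 held 30 counts, so MX1 is missing from the last sum. The log2 fold changes of the 10 tested ran from -0.81 for IFIT2 to 0.44 for IFI6, with 7 negative. The part of these shifts in the values of the H3K9 and HP1 genes was not tested, and in bulk RNA fewer cells of a kind and less RNA per cell cannot be told apart.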

How the data were processed

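RNA-seq and ChIP-seq of MDA-MB-231 cells were analysed from the deposited files. For RNA-seq, the authors deposited read counts per gene, obtained with STAR 2.5.1 on GRCh38, a mapping quality filter, duplicate removal and htseq-count at default parameters. Duplicates removed without molecular identifiers include distinct molecules of highly expressed genes. The annotation version is not given in the sources used here, and 23061 of 23167 identifiers were matched to GENCODE release 44. The authors called the peaks with normR against input on single libraries. Input and PCHiC samples were not used here.

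The quasi-likelihood test of edgeR 4.0.16 (R 4.3.3) was run on the counts with TMM factors, its filter on low counts and Benjamini-Hochberg adjustment. A gene was called at an adjusted p below 0.1 and more than a 1.5-fold difference, the thresholds of the study, whose tool, DESeq2 (here 1.42.0), was an alternative. Chromosomes 21, 22, X and Y were left out of the main test. FPKM used the exon lengths of GENCODE. GC content and length trends were removed by lowess (span 0.3) as offsets. The test was tested on simulated data that, unlike these libraries, had no trend with GC content. The genes named are all 10 members, MACROH2A1, of each other pathway list the called genes or else the highest and lowest, and genes sharing promoters or exons. KDM7A and the marker genes were named after their values were seen. Members and lists were chosen with earlier results of these data known. Promoters are from RefSeq (GRCh38.p14).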

Additional observations from a re-analysis of the deposited data

How the results depend on the processing

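The counts of calls depended on the processing, and the cause was not tested. Calls over all genes, 0 in the test as reported, were 445 lower and 429 higher with DESeq2, 535 and 410 with DESeq2 on the whole table, 1115 and 1024 without the filter on low counts, 365 and 242 with the GC content and length correction, and 231 and 214 with DESeq2 and that correction. The whole table and RLE size factors in edgeR gave 0. With the replicate block there were 1137 lower and 1071 higher, and with the block and the correction 477 and 379. The libraries share only a replicate number, with r = 0.25 between the deviations of same-numbered libraries. Of the 9 genes, CBX5 alone (1 lower) was called without the filter and with the replicate block, and none with the other tools and scalings. Genes called lower were 1115 of all 15068 tested without the filter and 1137 of all 10963 tested with the block. Calls among the other H3K9 genes were 1 of 21 with DESeq2, 1 of 28 with DESeq2 on the whole table, 1 of 22 with DESeq2 and the correction, 2 of 24 with the correction with or without the block, 3 of 25 without the filter and 3 of 24 with the block. Leaving out 1 library gave between 0 and 2424 lower calls and 0 and 2320 higher over all genes, between 0 and 3 lower and 0 and 1 higher among the 9 genes, and between 0 and 7 among the others, the highest values always without KD replicate 1. The median log2 fold change of the 9 genes then lay between -0.51 and -0.11. The sign turned under the correction in edgeR, in DESeq2 and with the block for EHMT1 (-0.014, -0.016 and -0.018), CBX1 (-0.055, -0.057 and -0.061) and ATF7IP (0.13, 0.13 and 0.14), and under no other alternative for any of the 9 genes. Total mH2A1 peaks at the TSS were found at 2 genes within 1000 bp, 3 within 3000 bp and 2 at any transcript start. When at least 50% of a peak had to be shared, 1 gene had a common peak. The mH2A1.1 count was 5 in every window. Leaving out EHMT2, chosen after seeing the data, changed none of the 3 counts. A stricter score could not be applied, since all scores are 0. Depth limits SETDB2 most.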
